A study of Mus musculus with 8 samples.

Results

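The genes described here are 30 genes of protein and organelle breakdown in heart muscle: 4 muscle ubiquitin ligases, a ubiquitin gene, 4 cargo receptors and mitophagy genes, 4 initiation genes, 6 conjugation genes, the 5 Atg8-family genes, 5 lysosomal genes and the transcription factor gene Tfeb. They were chosen by name, by matching the NCBI Gene numbers of the deposited tables to mouse symbols. All 30 were found among 18215 gene numbers, and all 30 passed the filter on low counts that left 12670 genes.

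Polyadenylated mRNA of mouse hearts was sequenced from 4 samples labelled as carrying a Carns transgene (TG) and 4 labelled as wild type (WT). Carns1 encodes carnosine synthase, which makes the histidyl dipeptide carnosine. The labels give no strain, age or sex, and no promoter for the transgene, and nothing in them ties a sample to its own animal. The p-values therefore cover the spread among the samples as given, which could be technical. The library totals lay between 6261193 and 7897629 expected counts. Carns1 stood at 19071 to 24288 counts per 1000000 (CPM) in the TG libraries and at 44.5 to 73.3 CPM in the WT libraries, a 332-fold difference, so every library matched its label. The sum of 8 cardiomyocyte markers lay within 69200 to 81583 CPM for TG and within 67188 to 81238 CPM for WT. TG replicate 2 stood apart from the other 7 libraries, with summed adipocyte markers at 1025 CPM against 78.4 to 118 CPM, and summed atrial markers at 856 CPM against 61.3 to 259.8 CPM. The other 7 were not alike either. Their adipocyte sums were mostly Lipe, at 70.1 to 105 CPM. Among them, Car3 stood at 18.1 CPM in TG replicate 4 and 4.38 CPM in WT replicate 1, against 0.695 to 1.83 CPM in the rest. Myl7 stood at 46.8, 18.8 and 12.4 CPM in TG replicate 4, WT replicate 1 and WT replicate 4, against 1.35 to 2.87 CPM in the rest. In RNA from whole tissue, fewer cells of a type and less RNA per cell cannot be told apart.

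Muscle breaks down its proteins along 2 routes. In the ubiquitin route, a ligase attaches chains of ubiquitin to a protein, which the proteasome then degrades; atrogin-1, encoded by Fbxo32, and MuRF1, encoded by Trim63, are the ligases known for their rise in wasting muscle. In autophagy, a membrane closes around cargo and fuses with a lysosome, where cathepsins digest the content. Ulk1 and Becn1 start the process, a conjugation machinery attaches Atg8-family proteins such as LC3 to the membrane, and receptors such as p62, encoded by Sqstm1, tie cargo to them. Long-lived cells such as cardiomyocytes depend on this turnover to clear damaged mitochondria.

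The set spanned a wide range of levels in these hearts, and the order of levels was led by ubiquitin, a cathepsin and LC3A. Per gene length (deposited FPKM, fragments per kilobase and per 1000000 fragments), Ubb, one of the genes for chains of ubiquitin, stood highest at 868 ± 97.0 (SD over the 8 libraries). Ctsd, which encodes cathepsin D, followed at 721 ± 57.9 FPKM, and Map1lc3a, which encodes LC3A, at 578 ± 94.0 FPKM. Each of these stood above the next gene in the order in 8 of 8 libraries. At the low end stood the conjugation genes Atg5, at 7.32 ± 1.31 FPKM, and Atg7, at 7.25 ± 0.602 FPKM. Together the 30 genes took 0.785% to 0.893% of the counts of a library.

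Within each role the order per gene length was mostly the same in every library. Among the ligases, Trim54 stood above Trim63 in 8 of 8 libraries, with a ratio of 1.57 ± 0.14 (SD), followed by Trim55 and then Fbxo32, again in 8 of 8 libraries. Among the Atg8 genes the order was Map1lc3a, Gabarap, Map1lc3b and Gabarapl2 in 8 of 8 libraries. Gabarapl2 at 74.8 ± 6.0 FPKM and Gabarapl1 at 69.1 ± 4.35 FPKM lay close together, with Gabarapl2 above in 7 of 8. The lowly expressed conjugation genes could not be ordered, since Atg5 stood above Atg7 in 4 of 8 libraries and Atg3 above Atg5 in 5 of 8. Neighbours of different roles that did not separate either were Lamp2 and Atg9a, and Fbxo32 and Atg16l1, each in the stated order in 4 of 8 libraries, and Becn1 and Tfeb, and Tfeb and Bnip3l, each in 5 of 8.

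**Figure D1:**
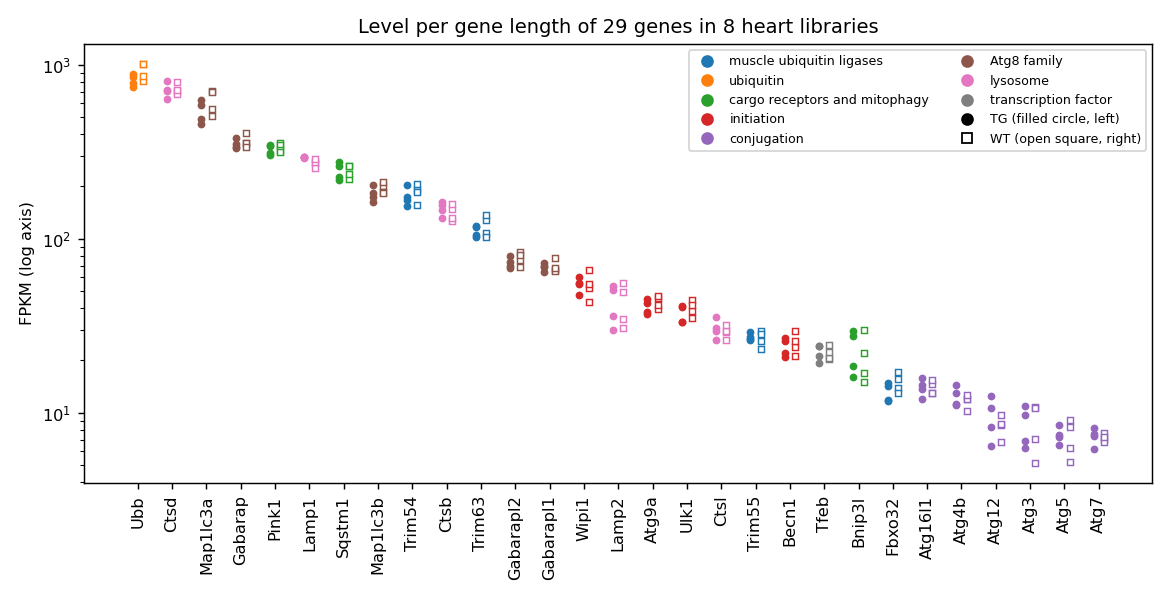
Deposited FPKM on a log axis for 29 of the genes, ordered by their mean over 8 libraries. Each point is a library, with TG as filled circles on the left and WT as open squares on the right of each gene, and colours mark the roles. Ubb stands highest at 868 FPKM and Atg5 and Atg7 lie at the low end at 7.32 and 7.25 FPKM, and the TG and WT points of most genes share the same range.

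The central comparison, TG against WT, asks whether these genes differ when Carns1 is overexpressed. No member passed the test. In edgeR's quasi-likelihood test with Benjamini-Hochberg adjustment over 12670 genes, 0 of 30 members had an adjusted p under 0.05, beside 2 of all genes tested (0.0158%). At an unadjusted p under 0.05 there were also 0 of 30 members, beside 3.49% of all genes. DESeq2 called 0 of 30 at either threshold, beside 0.118% and 2.72% of all genes. Without TG replicate 2, edgeR again called 0 of 30, beside 0.00776%. The smallest unadjusted p of a member in edgeR's quasi-likelihood model was 0.148, for Fbxo32, and the smallest adjusted p of a member was 0.9996.

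The fitted log2 fold changes, TG over WT, lay between -0.18 for Map1lc3a and 0.17 for Atg12, that is between 0.881-fold and 1.13-fold. Their median was 0.01, beside -0.0017 over all genes tested, with 16 members above 0 and 14 below. The 95% intervals of the members reached down to -0.52 (0.696-fold) for Map1lc3a and up to 0.60 (1.51-fold) for Bnip3l. By role, the 6 conjugation genes had fitted values above 0 in 6 of 6, the lysosomal genes in 4 of 5, the Atg8 genes in 1 of 5 and the ligases in 1 of 4, with medians of 0.06, 0.08, -0.09 and -0.08. Over all genes tested 6277 of 12670 were above 0. The signs of the conjugation genes did not hold in every fit. In the libraries with smaller totals alone, described below, Atg3, Atg4b, Atg5 and Atg7 had -0.03, -0.12, -0.12 and -0.04, and Atg12 and Atg16l1 had 0.35 and 0.0011. No gene of any role passed the test, and no test was made of a role as a whole.

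**Figure D2:**
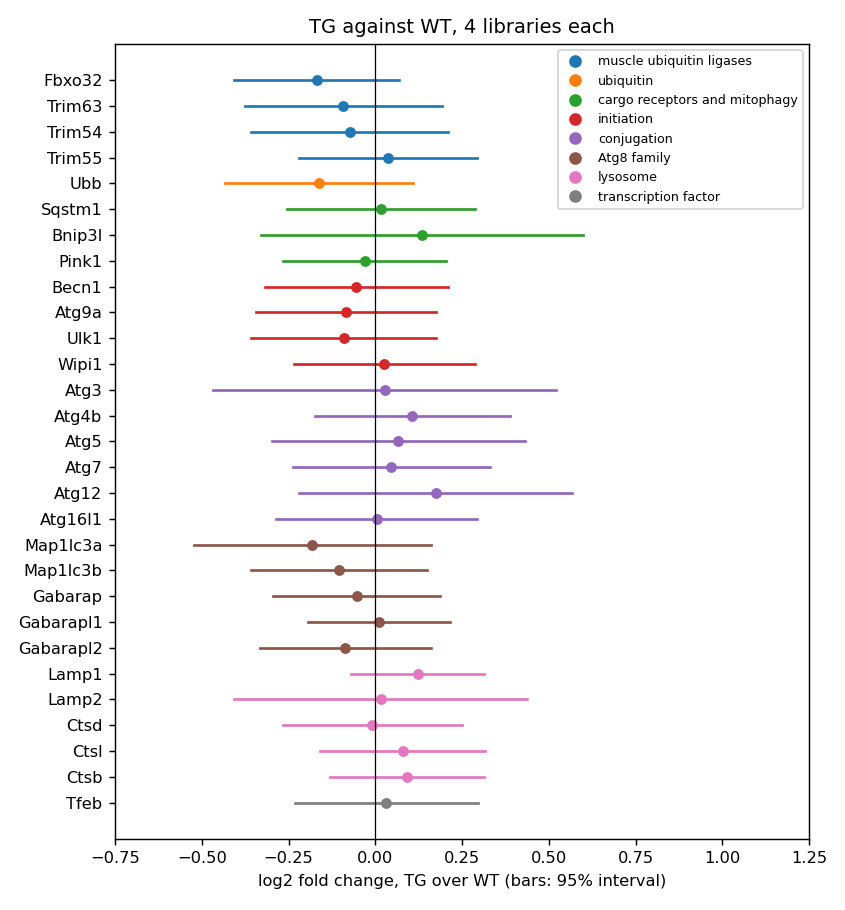
Fitted log2 fold change, TG over WT, of 29 of the genes with its 95% interval from edgeR, 4 libraries per group, coloured by role. Every interval includes 0, and the fitted values run from -0.18 (Map1lc3a) to 0.17 (Atg12).

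Fbxo32 encodes atrogin-1, the substrate-binding part of a ubiquitin ligase complex of muscle. Its level was 85.1, 99.9, 85.5 and 102 CPM in TG replicates 1 to 4 and 97.9, 95.9, 119 and 106 CPM in WT replicates 1 to 4. The TG values lay mostly at the lower end, but TG replicates 2 and 4 fell inside the WT range. The log2 fold change was -0.17 (SE 0.11, 95% interval -0.41 to 0.07).

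Trim63 encodes MuRF1, a ligase located at the sarcomere. It measured 226, 198, 231 and 189 CPM in the TG libraries and 243, 270.2, 201 and 186 CPM in the WT libraries. The WT group held both the highest and the lowest of the 8 values. The log2 fold change was -0.09 (SE 0.13). Its relatives Trim54 (MuRF3) and Trim55 (MuRF2), which bind microtubules and the sarcomere, also overlapped. Trim54 spanned 231 to 323 CPM in TG and 238 to 332 CPM in WT, and Trim55 spanned 46.6 to 53.2 CPM in TG and 39.7 to 53.1 CPM in WT. One promoter among the members held a match to the forkhead core TGTTTAC, searched on both strands in the 250 bases before to 50 bases after each start. Forkhead factors of the FoxO family are known regulators of muscle ligase genes. It was that of Trim63, shown here because this gene is a ligase known from wasting muscle; the sequence is from RefSeq, mouse GRCm38.p6, chr4:134314914-134314944, plus strand, and capitals mark the match, 194 bases before the start.

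Trim63 promoter: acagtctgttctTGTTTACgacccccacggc

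The forkhead core was present in 1 of the 21 members with a RefSeq promoter entry (4.76%), beside 4.05% of all 27025 genes with one, tested here or not. The promoters not searched included those of Fbxo32, Trim55, Map1lc3a, Becn1, Atg12, Atg16l1, Ctsb and Bnip3l.

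Ubb, the polyubiquitin gene, supplies ubiquitin itself. Its level was 1212, 978, 1163 and 1019 CPM in TG and 1335, 1416, 1061 and 1081 CPM in WT. The 2 highest values were WT replicates 1 and 2 and the 2 lowest were TG replicates 2 and 4. Between these, WT replicates 3 and 4 lay below TG replicates 1 and 3, so the groups overlapped. The log2 fold change was -0.16 (SE 0.13, 95% interval -0.43 to 0.11). Ubb shares its repeated coding sequence with other ubiquitin genes, so its count depends on how shared reads were divided and is uncertain.

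Sqstm1 encodes p62, the receptor that links ubiquitinated cargo to LC3. It measured 578, 436, 543 and 444 CPM in the TG libraries and 533, 554, 436 and 456 CPM in the WT libraries. In both groups replicates formed a higher and a lower pair, and the ranges overlapped. The log2 fold change was 0.02 (SE 0.13), and the means were 500.2 ± 71.1 and 495 ± 57.2 CPM (SD, n = 4 each).

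The mitophagy genes Pink1 and Bnip3l overlapped as fully. Pink1, whose kinase marks damaged mitochondria for removal, spanned 699 to 852 CPM in TG and 722 to 858 CPM in WT. Bnip3l, which encodes the mitochondrial receptor NIX, measured 54.1, 89.5, 62.3 and 93.7 CPM in the TG libraries and 55.4, 51.7, 96.6 and 69.4 CPM in the WT libraries. Within each group Bnip3l varied more than between the group means, with a coefficient of variation of 26.2% in TG and 29.8% in WT and a log2 fold change of 0.13 (SE 0.21).

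Of the initiation genes, Ulk1 encodes the kinase that starts autophagosome formation, Becn1 a subunit of the lipid kinase that follows, Atg9a a transmembrane protein of the membrane supply and Wipi1 a reader of the lipid product. Ulk1 measured 222, 174, 223 and 171 CPM in the TG libraries and 234, 213, 184 and 211 CPM in the WT libraries. The 2 lowest values were both TG libraries, while the other 2 TG libraries lay inside the WT range. The log2 fold changes of the 4 genes ran from -0.09 (Ulk1, SE 0.12) to 0.03 (Wipi1, SE 0.12), and the groups overlapped for each.

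The conjugation genes encode the enzymes that attach Atg8-family proteins to lipid. Atg7 is the activating enzyme, Atg3 the conjugating enzyme, Atg4b a protease that trims Atg8 proteins, and Atg12, Atg5 and Atg16l1 form the complex that directs the final step. Atg12 had the highest fitted value of the 30 genes at 0.17 (SE 0.18), with 16.7, 31.3, 21.3 and 25.8 CPM in TG and 21.5, 17.9, 24.1 and 20.6 CPM in WT. Both the lowest and the highest value were TG libraries. Atg3 measured 13.0, 22.1, 14.3 and 19.0 CPM in the TG libraries and 14.3, 10.9, 21.4 and 20.6 CPM in the WT libraries, so that each group held a lower and a higher pair. Atg7 and Atg16l1 had log2 fold changes of 0.05 (SE 0.13) and 0.0036 (SE 0.13).

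Of the Atg8 family, Map1lc3a had the lowest fitted value of the 30 genes. Its level was 675, 509.6, 634 and 467 CPM in TG and 743, 770.0, 573 and 508 CPM in WT. The 2 highest values were WT libraries and the lowest a TG library, with the groups overlapping between 508 and 675 CPM. The log2 fold change was -0.18 (SE 0.16, 95% interval -0.52 to 0.16). Map1lc3b, which encodes LC3B, spanned 269 to 358 CPM in TG and 302 to 378 CPM in WT, with a log2 fold change of -0.11 (SE 0.12). The GABARAP genes act in the same family at later steps of autophagosome maturation. Gabarap, Gabarapl1 and Gabarapl2 had log2 fold changes of -0.05, 0.01 and -0.09 with SE of 0.11, 0.09 and 0.11. The sum of the 5 Atg8 genes lay within 1281 to 1679 CPM for TG and within 1366 to 1827 CPM for WT.

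Lamp1, which encodes a major glycoprotein of the lysosomal membrane, was the only member whose groups did not overlap. Its level was 682, 657, 680.2 and 636 CPM in TG and 612, 598, 615 and 616 CPM in WT. Every TG value lay above every WT value. The means were 664 ± 21.8 and 610.2 ± 8.70 CPM (SD, n = 4 each), and the log2 fold change was 0.12 (SE 0.09, 95% interval -0.07 to 0.31), which did not pass (edgeR adjusted p = 0.9996). That is 1 of 30 members without overlap, or 3.33%, beside 2.53% of all genes tested, a share near the background. Lamp1 also had the smallest spread within the groups among the members, with a coefficient of variation of 3.28% in TG and 1.43% in WT.

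Lamp2, which encodes a second membrane glycoprotein needed for autophagosomes to fuse with lysosomes, did not separate the groups. It measured 101, 159, 118 and 170.2 CPM in the TG libraries and 111, 102, 159 and 171 CPM in the WT libraries. Each group held a lower pair and a higher pair, and the log2 fold change was 0.02 (SE 0.19). Among the cathepsins, the proteases of the lysosome, Ctsd measured 1656, 1390.0, 1458 and 1228 CPM in the TG libraries and 1406, 1664, 1329 and 1367 CPM in the WT libraries, with a log2 fold change of -0.01 (SE 0.12). Ctsb spanned 649.5 to 777 CPM in TG and 612 to 733 CPM in WT, and Ctsl spanned 94.95 to 125 CPM in TG and 93.0 to 108 CPM in WT. Tfeb, which encodes the transcription factor of lysosomal and autophagy genes, measured 59.4, 45.5, 58.7 and 49.2 CPM in the TG libraries and 58.3, 50.7, 48.4 and 50.7 CPM in the WT libraries, with a log2 fold change of 0.03 (SE 0.12).

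Macrophages are rich in lysosomes, and their markers are given beside these values. Of 12 macrophage and dendritic cell markers, 11 had a fitted value below 0 in TG with a median log2 fold change of -0.32, and 0 passed the test. Their summed level lay within 536 to 882 CPM for TG and within 776 to 1029 CPM for WT, and none was at 0 in every library. Their part in the lysosomal values was not tested.

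**Figure D3:**
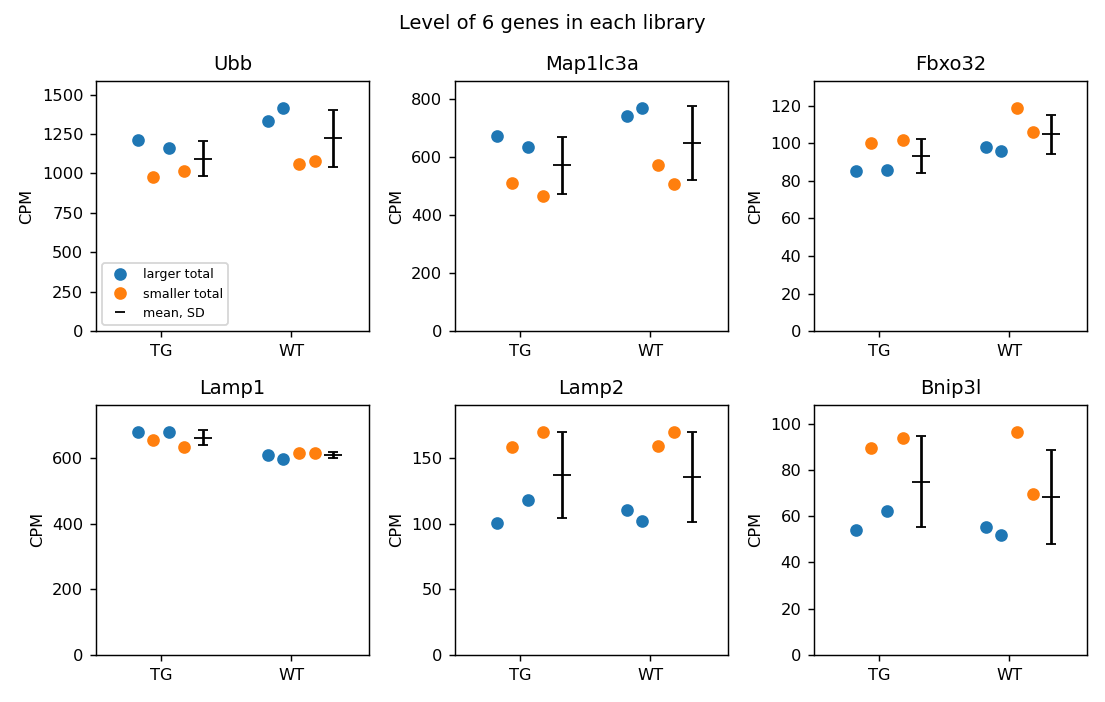
CPM of 6 genes in each library, with axes starting at 0. Points are libraries, coloured by total count, and the bar is the mean with its SD (n = 4). Lamp1 separates TG (636 to 682 CPM) from WT (598 to 616 CPM), while Ubb, Map1lc3a, Fbxo32, Lamp2 and Bnip3l overlap and, within each group, part by total count.

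TFEB and its relatives read the E-box core CACGTG, and the promoters were searched for it on both strands, which are the same for this palindrome. It was present in 6 of 21 member promoters (28.6%), those of Lamp1, Ctsd, Ctsl, Atg3, Atg5 and Atg7, in 22.5% of the promoters of 142 other pathway genes and in 8.09% of all 27025 genes. The last share includes genes too low in these hearts to be tested, while every member was tested. No share over tested genes alone was taken, so these shares are not compared at like expression. The windows of 4 of them are shown, since the first 3 are lysosomal genes and Atg3 had a pair of matches; they come from RefSeq, mouse GRCm38.p6, end before the start and have the matches in capitals. Lamp1 lies at chr8:13159088-13159160 (plus strand) with 4 matches, at 61, 45, 28 and 15 bases before the start. Ctsd lies at chr7:142387908-142388077 (minus strand) with matches at 245 and 98 bases, Ctsl at chr13:64370739-64370768 (minus strand) with a match at 236 bases, and Atg3 at chr16:45158723-45158775 (plus strand) with matches at 94 and 71 bases.

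Lamp1 promoter: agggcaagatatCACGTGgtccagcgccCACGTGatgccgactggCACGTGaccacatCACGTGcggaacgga
Ctsd promoter: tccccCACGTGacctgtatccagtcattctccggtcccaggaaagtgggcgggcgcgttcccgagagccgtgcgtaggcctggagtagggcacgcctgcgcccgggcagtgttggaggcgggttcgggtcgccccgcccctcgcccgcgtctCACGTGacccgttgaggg
Ctsl promoter: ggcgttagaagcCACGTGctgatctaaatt
Atg3 promoter: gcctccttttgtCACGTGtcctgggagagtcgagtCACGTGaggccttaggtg

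None of the 6 members with this match passed the test between TG and WT. Their fitted log2 fold changes were 0.12 for Lamp1, -0.01 for Ctsd, 0.08 for Ctsl, 0.03 for Atg3, 0.07 for Atg5 and 0.05 for Atg7. A match in these letters is a description of the window and says nothing of binding in these hearts. The genome build named in the submitters' processing notes differs from that of the sequences, which were used for their letters and positions only.

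The other genes of the same pathways, 171 in 9 lists, included no called gene either. None of the 171 had an adjusted p under 0.05 in edgeR's quasi-likelihood test with Benjamini-Hochberg adjustment, beside 0.0158% of all genes, and 1 had an unadjusted p under 0.05, beside 3.49%. DESeq2 called 0 as well. Their median log2 fold change was 0.01, with 95 above 0 and 76 below. The single gene was Idua, which encodes the lysosomal enzyme alpha-L-iduronidase. It measured 43.4, 33.6, 41.6 and 40.1 CPM in the TG libraries and 33.0, 31.2, 32.6 and 30.9 CPM in the WT libraries. Every TG value lay above every WT value, with TG replicate 2 closest to them, and the log2 fold change was 0.31 (SE 0.12, 95% interval 0.06 to 0.57, adjusted p = 0.9996 in edgeR). The groups did not overlap for 2 of 171 genes (1.17%, beside 2.53% of all genes), and the other was Sesn3, which encodes a stress-responsive regulator of mTOR signalling, at 4.70 to 5.42 CPM in TG and 3.01 to 4.38 CPM in WT.

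By list, the numbers of genes with a fitted value above 0 were 9 of 18 for initiation, 2 of 6 for conjugation, 8 of 12 for autophagosome fusion, 10 of 18 for selective receptors, 8 of 12 for the lysosomal membrane, 10 of 16 for the lysosomal proton pump, 17 of 39 for lysosomal hydrolases and their inhibitors, 16 of 26 for mTOR, TFE and FoxO regulators and 15 of 24 for muscle ubiquitin genes. Over all genes tested 6277 of 12670 were above 0. The list medians lay between -0.05 and 0.07. The genes of each list with the smallest p-values included Stbd1, a receptor for glycogen, at 0.33 (SE 0.19), Atp6v1d, a subunit of the proton pump, at 0.22 (SE 0.13), Cblb, a ubiquitin ligase, at 0.23 (SE 0.15), Vamp8, a fusion protein of the autophagosome, at -0.19 (SE 0.15), and Ctns, the lysosomal cystine transporter, at -0.19 (SE 0.13). Cst3, which encodes the cathepsin inhibitor cystatin C, was the most abundant gene of the hydrolase list. It measured 1011, 770.4, 851 and 745 CPM in the TG libraries and 1065, 1238, 891 and 906 CPM in the WT libraries. The WT values were mostly the higher ones, but TG replicate 1 lay inside their range. The log2 fold change was -0.28 (SE 0.14, 95% interval -0.57 to 0.01).

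Many members varied among the libraries along a line other than the transgene. The 8 libraries fall into 4 with larger totals (7394143 to 7897629 counts: TG replicates 1 and 3, WT replicates 1 and 2) and 4 with smaller totals (6261193 to 6557621 counts: TG replicates 2 and 4, WT replicates 3 and 4). Each class holds 2 libraries of each group, so the class and the transgene can be told apart. The labels give no batch, and the classes are described by their totals only. The comparison between them was added after the data were seen and fitted with group in the model.

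In that comparison 17 of 30 members (56.7%) passed edgeR's quasi-likelihood test with Benjamini-Hochberg adjustment, beside 32.2% of all genes tested. Of the 171 other pathway genes 80 passed (46.8%), so a high share was not particular to the members. With the filter set at a mean of at least 5 CPM, 17 of 30 members passed, beside 37.3% of all genes. The 5 members higher in the libraries with smaller totals (beside 17.8% of all genes) were Atg3, Bnip3l, Lamp2, Atg12 and Fbxo32, with log2 differences of 0.66, 0.64, 0.61, 0.39 and 0.23. The 12 lower ones (beside 14.4% of all genes) ran from Map1lc3a at -0.45 to Ctsd at -0.22 and included Trim63 (-0.33), Sqstm1 (-0.32), Ubb (-0.31) and Trim54 (-0.30). The count was 8 without TG replicate 1 (beside 20.3% of all genes) and 10 without TG replicate 4 (beside 23.3%). In each group alone, with 2 libraries against 2, it was 5 of 30 in TG (beside 6.80% of all genes) and 5 of 30 in WT (beside 8.92%), and Lamp2, Bnip3l and Map1lc3a were called in both.

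The libraries show the size of this difference directly. Lamp2 had a mean of 108 ± 8.21 CPM in the libraries with larger totals and 165 ± 6.56 CPM in those with smaller totals (SD, n = 4 each). For Bnip3l the means were 55.9 ± 4.53 and 87.3 ± 12.3 CPM, and for Atg3 13.1 ± 1.601 and 20.8 ± 1.30 CPM. For Map1lc3a they were 705 ± 62.2 and 515 ± 43.7 CPM. The classes did not overlap for 18 of 30 members (60.0%), beside 29.9% of all genes and 75 of the 171 pathway genes (43.9%). Among the markers, 5 of 8 fibroblast genes passed the same test, beside 32.2% of all genes, and 7 of 8 were fitted higher in the smaller libraries. Their summed levels were 1284 to 1369 CPM in the larger and 1510 to 2056 CPM in the smaller libraries. Of the cardiomyocyte markers 4 of 8 passed, and the directions were mixed, with 3 of 8 fitted higher in the smaller libraries. Their sum stood at 75750 to 81583 CPM in the larger and 67188 to 71701 CPM in the smaller libraries. Pln ran opposite to the sum, at 3410 to 4005 CPM in the larger and 4272 to 4859 CPM in the smaller libraries. The part of these cell types in the difference was not tested.

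**Figure D4:**
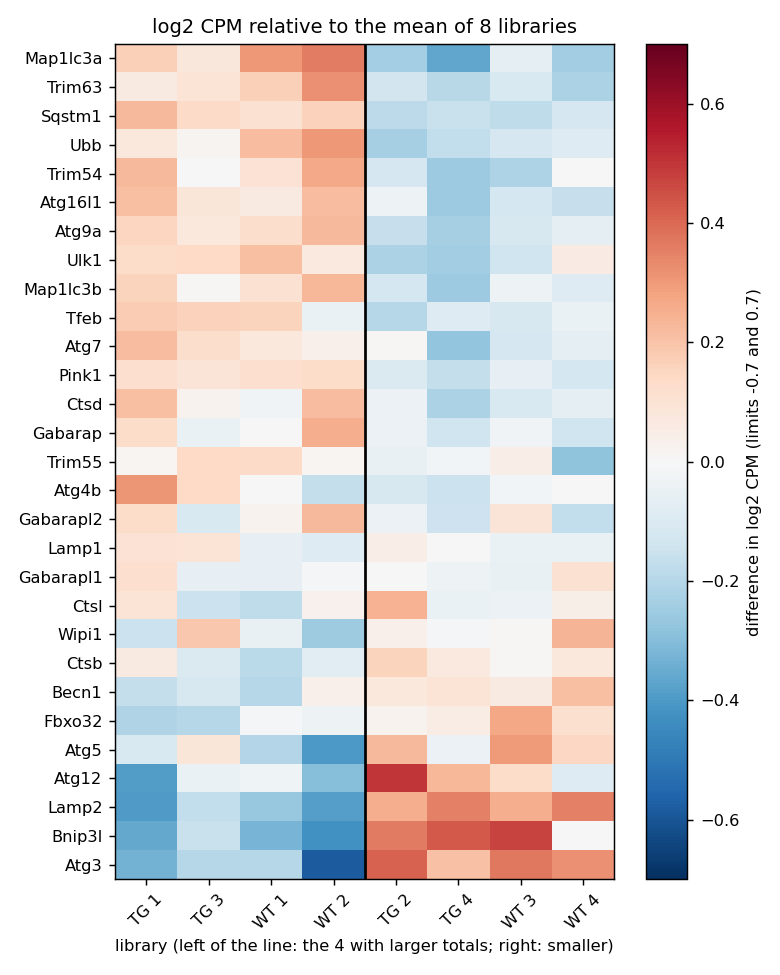
Difference in log2 CPM of 29 of the genes (rows) from its mean over 8 libraries (columns), with the 4 libraries of larger total left of the line and the 4 of smaller total right. Red is above the mean and blue below; Map1lc3a, Trim63, Sqstm1 and Ubb are above it mostly on the left, and Lamp2, Bnip3l and Atg3 on the right, in TG and WT libraries alike.

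Among the called members, the direction of the difference between the classes followed the base composition of the transcripts. The 5 members higher in the libraries with smaller totals had a transcript GC content of 40.9% to 45.8%, and the 12 lower ones 52.4% to 61.8%. Members not called included exceptions, such as Gabarapl2 (45.3% GC) at -0.14 (SE 0.09) and Wipi1 (52.1% GC) at 0.13 (SE 0.10). Across the 30 members, the log2 difference and GC content had Pearson's r = -0.81 and Spearman's rho = -0.79. The same relation had r = -0.84 over the 171 pathway genes and r = -0.66 over 12557 genes. These are descriptions across genes that share the same 8 libraries, and genes are not independent replicates. With offsets for GC content and length in the fit, 0 of 30 members passed edgeR's test between the classes, beside 4.24% of all genes. At an unadjusted p under 0.05 there were 11 of 30, beside 21.6% of all genes. The offsets were fitted to the deviations of these same libraries, so a class difference that follows GC content is removed by construction. The lower count is therefore no test of GC content as a cause. For TG against WT, r with GC content was -0.42 over the members and -0.08 over all genes.

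**Figure D5:**
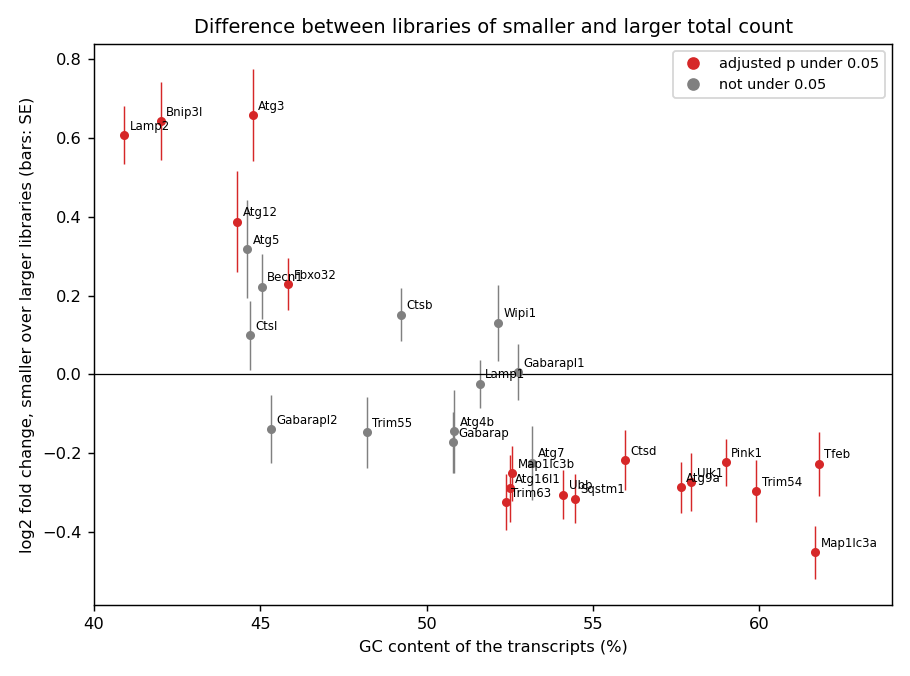
Fitted log2 difference between libraries of smaller and larger total count (y axis, bars are SE) against transcript GC content in percent (x axis) for 29 of the genes. The red points above 0 lie at 40.9% to 45.8% GC and those below 0 at 52.4% to 61.8% (r = -0.81 over all 30 members), where red marks an adjusted p under 0.05.

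With the total-count class as a term in the fit of TG against WT, again 0 of 30 members passed, beside 0.221% of all genes. At an unadjusted p under 0.05 there were 3 members (10%), beside 8.97% of all genes, a share near the background. They were Fbxo32 at -0.17 (SE 0.07, adjusted p = 0.478), Map1lc3a at -0.18 (SE 0.07, adjusted p = 0.479) and Ubb at -0.16 (SE 0.06, adjusted p = 0.508), by edgeR's quasi-likelihood test. Fbxo32 and Ubb were lower in both TG libraries than in both WT libraries within each class, and Lamp1 was higher in the same way. That is 3 of 30 members (10%), beside 8.93% of all genes. With the class term Lamp1 had a log2 fold change of 0.12 (SE 0.06, unadjusted p = 0.068, adjusted p = 0.597, edgeR's quasi-likelihood test). With offsets for GC content and length, the value of Map1lc3a was -0.06 (SE 0.08), that of Ubb -0.11 (SE 0.07) and that of Fbxo32 -0.20 (SE 0.08). There 0 of 30 members passed (beside 0.0478% of all genes), and Fbxo32 alone had an unadjusted p under 0.05 (beside 6.59%).

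Transcript makeup was visible only through the gene length that the deposited tables give per library, which is the authors' value. For Lamp2, a gene with several isoforms, it lay between 3114 and 3246 bases over the 8 libraries, with TG and WT libraries overlapping. No isoform was measured separately here.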

How the data were processed

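Polyadenylated mRNA from 4 TG and 4 WT heart samples was sequenced, and groups were taken from the labels' titles. Each deposited table holds 1 row per NCBI Gene number with its expected count and FPKM, per the file headers. Expected counts are the authors' estimates of fragments per gene, not normalized, and 79.0% to 79.8% of those above 0 were whole within 0.005. The deposited FPKM values are the authors' levels per kilobase and per 1000000 fragments. The submitters' processing notes name Bowtie2 and the build mm8 but give neither a role. The counting program and its use of strand are not given in the sources used here, so reads of overlapping or antisense genes cannot be told apart.

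Expected counts were rounded, and genes not listed in a table were taken as 0. The edgeR filter (minimum count 10, minimum total 15) kept 12670 genes. The test was edgeR's quasi-likelihood test (version 4.0.16, R 4.3.3, TMM, group alone, two-sided, Benjamini-Hochberg over all genes tested, threshold 0.05). CPM values use TMM-scaled totals, and 3 counts equal 0.386 to 0.476 CPM on that scale, which covers counting error only. DESeq2 1.42.0, limma 3.58.1, other filters, FPKM with pseudocounts of 1 and 0.1, the replicate block, total-count classes, left-out libraries and GC and length offsets (the last added after seeing the data) were alternatives. The scripts were tested on simulated data. Within a group, no pair of libraries had a chi-square below 4.29 times its degrees of freedom, so no pair differed by counting error alone. This does not tell whether samples shared an animal or an RNA preparation. Members, pathway lists and markers were chosen with earlier results of these data known. Named pathway genes are, in each list, the 2 with the smallest p and the most abundant by FPKM. GC content came from GENCODE M21 transcripts matched by RefSeq accession, for all 30 members. The values of 1 member, counted in the totals, are not reported here.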

Additional observations from a re-analysis of the deposited data

Results flagged for a closer look

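Atg4b, whose protease trims Atg8-family proteins, was at 32.06 CPM in WT replicate 2, while the other 3 WT libraries lay between 35.49 and 36.07 CPM. That library lay far from the others of its group relative to the group's range. In TG, Atg4b ranged from 32.4 to 44.6 CPM, so the low value lay near the lowest TG values.

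Epg5, which encodes a tethering factor for fusion of autophagosomes with lysosomes, was at 16.18 CPM in TG replicate 2, while the other 3 TG libraries lay between 21.55 and 22.28 CPM. TG replicate 2 is also the library with the highest adipocyte and atrial marker levels, and their part in this value was not tested. Of 114 groups examined (57 named genes in each of TG and WT), these 2 stood out in this way. Chance alone gives about 1 in 20 of the groups examined, a larger share than was found.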

How the results depend on the processing

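The counts of members and of pathway genes called for TG against WT were 0 under all 21 alternatives, and the median log2 fold change of the members lay between -0.04 and 0.02. Of 630 values of single members, 66 had the opposite sign to the main value, none of them called, and 11 members had the same sign throughout. Among all genes, 2 were called; the count was 15 with DESeq2, 4 without the filter, 1 with limma on FPKM at either pseudocount, 0 with Carns1 left out, 6 with GC and length offsets, 28 with the total-count class as a term, 59 in the larger libraries alone, 4 in the smaller ones alone and 1 to 3 with a library left out. Between the total-count classes 17 members were called; the count was 0 with GC and length offsets, 5 in TG alone, 5 in WT alone and 8 to 17 with a library left out. With those offsets 3 of the 17, Fbxo32 (-0.090), Pink1 (0.00066) and Tfeb (0.022), had the opposite sign, as had 3 members that were not called, Ctsl (0.099 without and -0.24 with them), Becn1 (0.22 and -0.020) and Lamp1 (-0.024 and 0.025). The causes were not tested.

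Deviations of same-numbered TG and WT libraries from their group means correlated at 0.236, -0.283, -0.183 and 0.402. TG replicate 1 correlated best with WT replicate 2 (0.461). Same-numbered libraries of the same total-count class (replicates 1 and 4) had the positive values, and those of different classes (replicates 2 and 3) the negative ones. Since the values follow the class, they cannot show whether the replicate numbers pair the libraries. With the replicate block, 0 members, 0 pathway genes and 1 of all genes were called for TG against WT, and 3 members between the total-count classes, beside 3.63% of all genes there.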
